A study of Mus musculus with 2 samples.

Results

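A group of 168 cells carrying transcripts of Ccr7, the chemokine receptor that steers dendritic cells to lymphatic vessels, and of Fscn1, an actin-bundling protein, was described in a single-cell library of adult mouse liver. The cells were chosen by their measured UMIs: at least 3 UMIs (unique molecular identifiers, each standing for 1 captured transcript) summed over Ccr7, Fscn1, Apol7c, Cacnb3 and Zmynd15, at least 1 of them from Ccr7 or Fscn1, and none from Cd3d, Cd3g or Klk1. They made up 5.48% of the 3065 cells kept in that library (exact 95% interval 4.70 to 6.35%), and 4313 cells were kept in both libraries of the study together. The library holds CD45+Lin-Sca-1+Mac-1+ (LSM) cells sorted from the liver of C57BL/6 wild-type mice aged 7 to 10 weeks. The other library holds CD45+Lin-CD122+CD49a+ cells from the liver of mice of the same strain and age. The study asked how varied the blood progenitors of the adult liver are. There is 1 library per gate and the labels do not say how many animals it pools, so no comparison here carries a test, and every interval covers counting error only.

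Dendritic cells take up antigen in tissues and then mature. On maturing they lower many uptake receptors, bring MHC class II with bound peptide and costimulatory molecules to the surface, and gain Ccr7, which follows the ligands Ccl19 and Ccl21 into lymph. Much of this change runs through NF-kB. In its canonical branch Rel and Rela are released from inhibitors such as Nfkbia, and in its alternative branch the kinase Map3k14 leads to processing of the Nfkb2 precursor, whose product pairs with Relb.

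Members held 782209 UMIs, with 1653, 4289 and 13670 UMIs in the lowest, median and highest cell, against a median of 5180 in the 2897 other LSM cells. They had a median of 1280 detected genes and 1.03% mitochondrial UMIs, against 1570 genes and 1.40% in the other LSM cells. The libraries shared 3 cell barcodes, none of them from a member. Levels below are UMIs summed over cells per 1000000 UMIs of the group (CPM), and ratios are members over other LSM cells unless another group is named. Of all genes, 6323 had a mean of at least 10 CPM over both groups, and a gene is called higher at a ratio of at least 2 and lower at a ratio of at most 0.5. A gene under 10 CPM in 1 group passed this filter through the other group alone, so its direction, higher or lower, was set by the filter.

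The values that chose the members are given as a description. Ccr7 (chr11:99144196-99155077, GRCm38) had 0, 6 and 28 UMIs in the lowest, median and highest member, and a UMI in 95.8% of members against 3.11% of other LSM cells. Fscn1 (chr5:142960343-142973185) had 0, 5 and 28 UMIs, and a UMI in 87.5% of members against 0.552% of other LSM cells. The calcium channel subunit Cacnb3 was found in 73.2% of members and Zmynd15 in 77.4%, against 0.552% and 1.21% of other LSM cells. Apol7c, an apolipoprotein L family gene, split the members: 82 of them had a UMI, up to 29 in 1 cell, and 86 had none. The 5 genes summed to 3, 19 and 66 UMIs in the lowest, median and highest member, and 48 members held all 5 genes, 65 held 4, 38 held 3, 12 held 2 and 5 held 1.

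Cells at the edge of the rule were few. The 5 members at exactly 3 rule-gene UMIs had 154 CPM of Traf1 and 1051 CPM of Ccl5, against 51.3 and 17.1 CPM in the 9 cells just outside at 2 UMIs. These levels rest on few cells. Of the 5 members, 2 held all 41 Ccl5 UMIs, 36 of them in 1 cell, and 2 held all 6 Traf1 UMIs. A further 10 cells had 3 or more UMIs but none of Ccr7 or Fscn1, and 3 had a UMI of Cd3d, Cd3g or Klk1. Those 3 held 1373 CPM of Traf1 and 1258 CPM of Relb, levels as high as in members. In the opposite direction, 3 of the 5 members at 3 UMIs went against the label. They had 13670, 8809 and 7493 UMIs in all, 3 Ccr7 UMIs each, no Fscn1, Relb or Ccl5 UMI, 4 H2-Aa UMIs or fewer, and 50, 19 and 8 UMIs of Stmn1, a microtubule regulator abundant in dividing cells.

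The label was checked against markers that the rule did not use. The rule did leave out cells with a UMI of Cd3d, Cd3g or Klk1. T cell markers, and any others that such cells carry, were thus in part set low by the rule. Zbtb46, a transcription factor of conventional dendritic cells, stood at 35.8 CPM in members. It was at 25.9 CPM in a cDC1 set, 21.4 CPM in a cDC2 set and 15.8 CPM in all other LSM cells. A Zbtb46 UMI was found in only 24 members and in 7.56% of other LSM cells. Its level in members was within 2-fold of both cDC sets, so it does not set members apart from them. The comparison sets are other LSM cells with at least 3 UMIs of their own marker list and fewer than 3 of each other list: 73 cells for cDC1 (Xcr1, Clec9a, Cadm1, Tlr3), 698 for cDC2 (Cd209a, Clec10a, Mgl2), 202 for monocytes (Ace, Treml4, Cd300e) and 217 for progenitors (Cd34, Dntt). Summed markers of most other cell types were lower in members. The 6 cDC2 markers were an exception, at 1590 CPM in members against 812 CPM in other LSM cells. Most of that sum was Tmem176a, which had a UMI in 163 members, while 4 of the 6 were lower. The 6 cDC1 markers summed to 48.6 CPM against 217 CPM, the 5 B cell markers to 12.8 CPM against 93.8 CPM and the 5 progenitor markers to 58.8 CPM against 152 CPM. The 8 monocyte markers summed to 194 CPM in members against 1793 CPM in other LSM cells, and Lyz2 made up 114 CPM of the members' sum. The 8 Kupffer cell markers summed to 3.84 CPM against 168 CPM, with 5 of them at 0, and the 8 NK cell or ILC markers to 14.1 CPM against 196 CPM, with 4 at 0. The 6 T cell markers summed to 28.1 CPM against 48.5 CPM, most of it Cd8a at 23.0 CPM, with Cd3e and Cd4 at 0. The 6 plasmacytoid dendritic cell markers summed to 90.8 CPM against 428 CPM. Of the 5 that passed the level filter 4 were lower. Spib was higher, with a UMI in 36 of 168 members and 220 of 2897 other LSM cells. The 4 plasma cell markers summed to 34.5 CPM against 3557 CPM. Their most abundant transcript, Jchain, had a UMI in 8.93% of members and 8.94% of other LSM cells. Neutrophil, stellate and erythroid markers were all at 0 in members.

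Transcripts of the sort antigens themselves were scarce among members. Ly6a, which encodes Sca-1, had a UMI in 9.52% of members against 30.9% of other LSM cells, and in 6.55% against 17.8% once every cell was thinned to 1500 UMIs. Itgam, which encodes the Mac-1 alpha chain and has 2 rows in the matrix, had a UMI in 3.57% of members against 15.9% of other LSM cells, and in 0.595% against 6.90% after thinning. In the progenitor set, whose median depth was 5405 UMIs, thinned shares were 24.0% for Ly6a and 2.76% for Itgam. The related surface gene Ly6e had a UMI in 17.9% of members against 80.0% of other LSM cells.

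**Figure D1:**
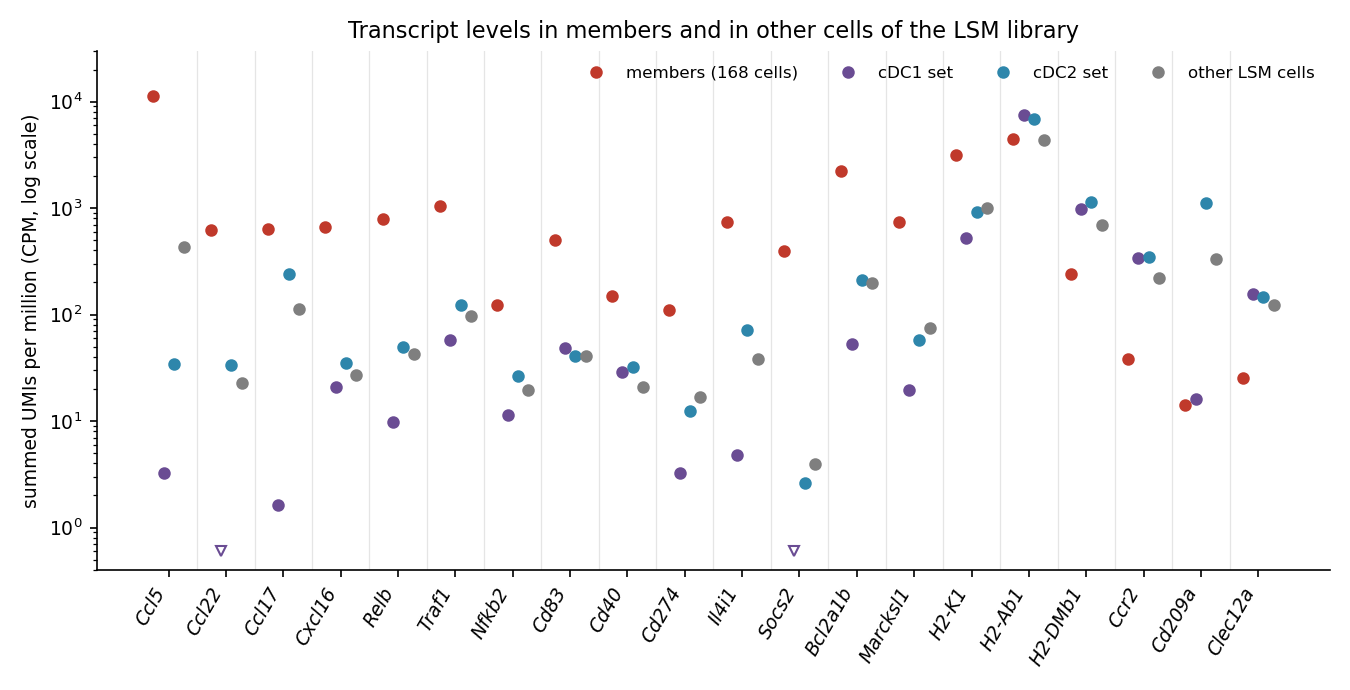
Level of 20 transcripts (x axis) in members, the cDC1 set, the cDC2 set and all other LSM cells, in CPM on a log scale; each point is 1 group and open triangles mark a group with 0 UMIs. Ccl5 at 11216 CPM in members stands above all other points, while H2-DMb1, Ccr2 and Clec12a are lowest in members.

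Across all genes, 741 of 6323 (11.7%) were higher and 1267 (20%) were lower in members than in other LSM cells, and the median log2 ratio was -0.25. The rule chose the members from this same contrast, so these shares are printed only as the background for the lists that follow. A list count near them is not read as a trait of that list. With TMM scaling, which centres the bulk of the genes, the median moved up by 0.21 on the log2 scale, 929 genes were higher and 944 lower, and the higher share of all calls was 49.6% where plain scaling gave 36.9%. Against the cDC2 set 845 of 6054 genes (14.0%) were higher and 988 (16.3%) lower. Against the cDC1 set 1081 of 5970 (18.1%) were higher and 1202 (20.1%) lower.

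The largest ratios among genes of at least 100 CPM in members belonged to Asprv1, a skin aspartic protease (148 CPM in members, 0.130 CPM in other LSM cells), Nudt17 (290 and 1.04 CPM) and Mreg (144 and 0.650 CPM). Asprv1 was seen in 18.5% of members, Nudt17 in 54.2% and Mreg in 45.8%, so the Asprv1 level rests on a minority of the cells. Also among the 20 highest were Socs2, a suppressor of cytokine signalling (398 against 3.96 CPM), Anxa3, a membrane-binding annexin (542 against 7.14 CPM), Fabp5, a fatty acid carrier (4215 against 97.8 CPM), and Tbc1d4, a Rab GTPase regulator (853 against 32.2 CPM). Tnfrsf4, the receptor OX40, stood at 207 CPM against 3.44 CPM, and Nr4a3, a nuclear receptor induced on dendritic cell activation, at 141 CPM against 5.0 CPM. The rest of the 20 were Clu, Tm4sf5, H2-M2, Ramp3, Fxyd2, Serpinb9, Serpinb6b, Ccl22, Tspan3, Ccl5 and Tmcc3, with ratios from 24.8 to 175.

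Several of the 10 transcripts rarest in members relative to the other cells marked neighbouring types in the gate. Mzb1, a chaperone of plasma cells and plasmacytoid dendritic cells, had 0 UMIs in members against 295 CPM, at least 76.8-fold lower with the floor of 3 counts over the members. Ly6d, Cox6a2 and Siglech, all found in plasmacytoid dendritic cells, had 1 UMI each in members, against 333, 154 and 100 CPM in other LSM cells. The lectins Clec10a and Cd209a stood at 2.56 and 14.1 CPM in members, against 105 and 329 CPM. Jchain (19.2 against 3237 CPM), the cathepsin Ctsl (6.39 against 119 CPM), the lipid carrier Apoe (25.6 against 463 CPM) and the disulfide isomerase Pdia4 (10.2 against 141 CPM) completed the 10 lowest.

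**Figure D2:**
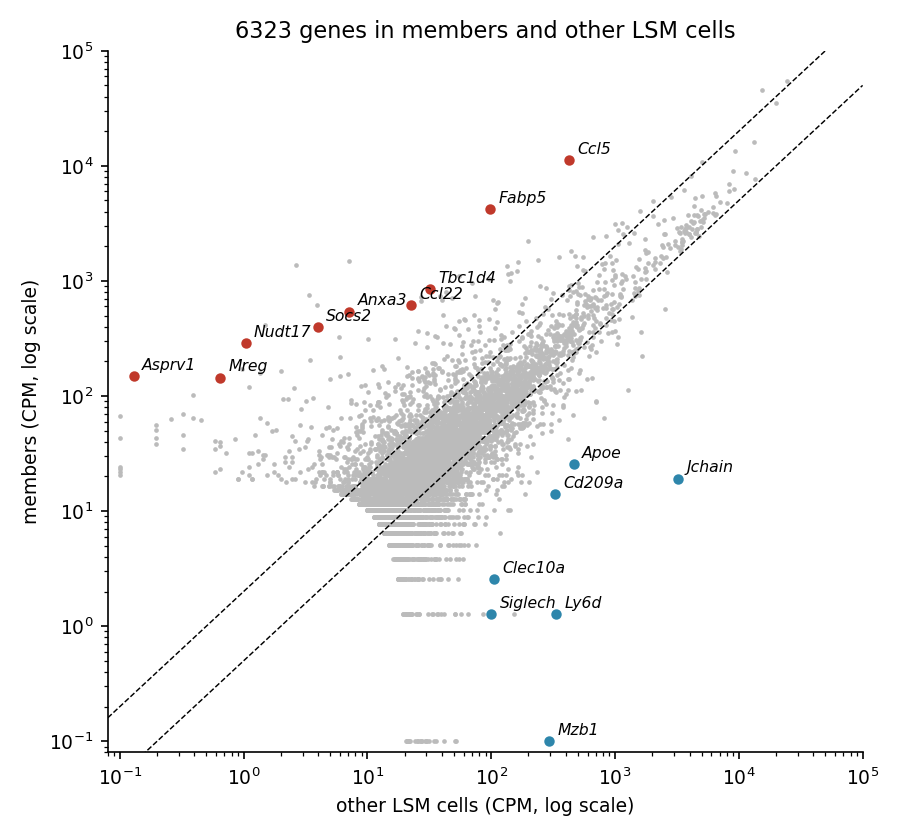
Level in members (y axis) against level in other LSM cells (x axis) for the 6323 genes with a mean of at least 10 CPM, both on log scales; each grey point is 1 gene, dashed lines mark ratios of 2 and 0.5, and genes with 0 UMIs in a group are drawn at 0.1. Named genes higher in members are red and reach 11216 CPM for Ccl5, and named genes lower in members are blue, with Mzb1 at 0 UMIs.

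Over all 3065 kept cells, the genes whose level per cell ran most like the summed rule genes were Anxa3 (Pearson r = 0.73), Socs2 (0.71), the chemokine Cxcl16 (0.70), Nudt17 (0.69) and Relb (0.66). The correlation is on log-scaled UMIs per cell and describes cells of 1 library that share depth and free RNA. It uses the UMIs that chose the members, so it restates that choice in part. A list of 16 further transcripts known from mature dendritic cells had 14 that passed the level filter, and all 14 were higher, with a median log2 ratio of 5.25 against -0.25 over all genes. Of these, 7 had under 10 CPM in the other cells and passed the filter through the members alone, so their direction was set by it. The list was chosen with earlier results of these data known. It shares genes such as Anxa3, Nudt17 and Mreg with the largest ratios above, so its count is a description and no check of the label. The most abundant of the list were the stress regulator Gadd45b (1349 against 135 CPM), the adaptor Samsn1 (1209 against 163 CPM) and the membrane protein Tmem123 (1103 against 54.8 CPM). Lamp3, a marker of mature dendritic cells in human tissue, had 0 UMIs in the members and in the other LSM cells.

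Among cytoskeletal and migration genes, 7 of 13 were higher and none lower (median log2 1.08). Tmsb4x, which binds free actin, was the most abundant at 54439 CPM in members against 24348 CPM in other LSM cells. Marcks and Marcksl1, actin and membrane linkers, stood at 1138 and 741 CPM in members against 136 and 74.4 CPM. The myosin Myo1g had 359 CPM against 80.9 CPM, and the adhesion receptor Cd44 had 220 CPM against 104 CPM. Actb missed the call at a ratio of 1.76, and with TMM scaling 9 of the 13 genes were higher. Of chemokine receptors other than Ccr7, 3 of the 5 that passed the level filter were lower and none higher. Ccr2, which draws cells from blood to inflamed tissue, stood at 38.4 CPM against 219 CPM, Ccr9 at 15.3 CPM against 91.5 CPM and Cx3cr1 at 8.95 CPM against 64.7 CPM. Cx3cr1 passed the level filter through the other cells alone. Cxcr4, which responds to Cxcl12, was at 51.1 CPM against 32.6 CPM, inside the called range.

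Chemokines divided into 4 higher and 5 lower of the 11 that passed the level filter (median log2 -0.05). Ccl5 (chr11:83525778-83530518), which attracts T cells and monocytes, was the outstanding one. It reached 11216 CPM in members, with 0, 33 and 260 UMIs in the lowest, median and highest member, against 429 CPM in all other LSM cells, 34.6 CPM in the cDC2 set and 3.23 CPM in the cDC1 set. After thinning to 1500 UMIs a Ccl5 UMI was found in 90.5% of members, 5.15% of other LSM cells, 2.05% of the monocyte set and 1.84% of the progenitor set (median depths of these sets before thinning, 2479 and 5405 UMIs). The Ccl5 UMIs of the monocyte set, 94 in all, lay in 3.47% of its cells. Cxcl16, a membrane-bound ligand of Cxcr6, stood at 666 CPM against 27.2 CPM and was detected in 92.3% of members. The Ccr4 ligands Ccl17 and Ccl22 stood at 638 and 620 CPM in members against 112 and 22.7 CPM, but in fewer cells: 35.7% of members had Ccl17 and 42.9% had Ccl22. Ccl22 was at 33.7 CPM and Ccl17 at 238 CPM in the cDC2 set. The inflammatory chemokines Ccl3 and Ccl4 were lower, at 63.9 and 224 CPM against 815 and 1654 CPM, as were Ccl6, Ccl9 and Cxcl2, and 4 chemokines stayed past the lower threshold with TMM scaling.

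Costimulatory genes gave 3 higher and 2 lower of 7. Cd83, a surface marker of mature dendritic cells, stood at 502 CPM against 41.0 CPM and was seen in 77.4% of members. Cd40, the receptor through which helper T cells license dendritic cells, stood at 150 CPM against 20.9 CPM, and Icosl at 63.9 CPM against 15.9 CPM. Cd86 missed the call at 74.1 CPM against 37.3 CPM, a ratio of 1.99 with an interval of 1.49 to 2.61. With TMM scaling 4 of the 7 were higher. Cd48 and Cd24a were lower, at 113 and 52.4 CPM against 361 and 172 CPM. Cd80, with 10 UMIs in all members, did not pass the level filter.

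Genes of a list named inhibitory and regulatory, which also holds the receptors Il4ra and Fas, gave 9 higher and 3 lower of 12 (median log2 2.85). Of the 12, 4 had under 10 CPM in the other cells, Socs2, Pdcd1lg2 and Aldh1a2 among them. They passed the level filter through the members alone, so their direction was set by it. Il4i1, an amino acid oxidase, stood at 738 CPM against 38.4 CPM and was detected in 86.9% of members. Socs2 has been given above. Cd200, the ligand of an inhibitory myeloid receptor, stood at 173 CPM against 13.6 CPM. Cd274 (PD-L1) stood at 111 CPM against 16.8 CPM, and its relative Pdcd1lg2 (PD-L2) at 85.7 CPM against 8.05 CPM. Both were found together in 25 members, Cd274 alone in 37 and Pdcd1lg2 alone in 19. Aldh1a2, which makes retinoic acid, stood at 94.6 CPM against 2.08 CPM and was detected in 22.0% of members. Havcr2, Lgals9 and Vsir were lower, and Ido1 had 0 UMIs in members. Havcr2 and Lgals9, with a UMI in 6 and 2 members, passed the level filter through the other cells alone.

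Cytokine genes gave 3 higher and 3 lower of 9, and 2 of the higher ones, Il12b and Il15, passed the level filter through the members alone. The interleukin-12 and interleukin-23 subunit Il12b had 52 UMIs in members and none in 2897 other LSM cells. Il1b stood at 151 CPM against 35.3 CPM. Il15, a growth factor of NK and memory T cells, stood at 53.7 CPM against 8.05 CPM, and Il15ra, which presents it to neighbouring cells, at 90.8 CPM against 3.18 CPM. Il12a, the partner of Il12b in interleukin-12, was lower at 14.1 CPM against 66.1 CPM, and so were Tgfb1 (56.3 against 195 CPM) and Il16 (1.28 against 34.0 CPM). Il16 passed the level filter through the other cells alone. Il23a, Il10 and Ifnb1 had 0 UMIs in members. Among cytokine receptors, 5 of 11 were higher and 3 lower, and 1 of the higher ones, Il15ra, passed the level filter through the members alone. The growth factor receptor chain Csf2rb stood at 171 CPM against 33.8 CPM, Il7r at 127 CPM against 35.2 CPM and Il21r at 113 CPM against 38.3 CPM. Csf1r, Crlf2 and Ifngr1 were lower, at 8.95, 58.8 and 57.5 CPM against 60.5, 121 and 164 CPM. Csf1r passed the level filter through the other cells alone. With TMM scaling Crlf2, at a ratio of 0.559, was no longer called.

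Genes of the NF-kB pathway gave 14 higher and none lower of the 19 that passed the level filter (median log2 1.64), and none of the 19 was under 10 CPM in the other cells. Relb had 0, 3 and 15 UMIs in the lowest, median and highest member and was detected in 96.4% of members against 16.4% of other LSM cells, at 798 CPM against 42.7 CPM. Traf1, an adaptor of TNF receptors, stood at 1046 CPM against 96.6 CPM, and Birc2, a ubiquitin ligase that holds Map3k14 in check, at 455 CPM against 61.9 CPM. Rel stood at 378 CPM against 65.1 CPM and the inhibitor Nfkbia at 1245 CPM against 549 CPM. In the alternative branch, Nfkb2 stood at 124 CPM against 19.4 CPM and Map3k14 at 132 CPM against 14.5 CPM. Nfkb1 did not share this pattern, with 81.8 CPM in members against 118 CPM, a ratio of 0.696 (0.534 to 0.893). Against the cDC2 set 12 of 19 were higher, and against the cDC1 set 17 of 18.

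The start regions of these genes were searched for the kB-like motif GGGANNTTCC on both strands, because members of the NF-kB family bind such motifs and several pathway genes are known targets of the pathway itself. The RefSeq windows (GRCm38.p6) run from 250 bases before to 50 bases after a start, on the strand of the gene. The motif was present in 3 of 21 windows of the list (14.3%), for 17 of 20 genes with a window, against 482 of 32851 windows of all genes (1.47%). The 3 windows belong to Nfkb2 and Nfkbia, and 2 of them overlap. None of 20 windows of the 20 genes with the largest ratios held it, with 14 of those genes having a window. A match is a description of letters and not a bound site. The 2 windows below are shown because their genes are the higher pathway members with a match, and capitals mark the matches, at bases 15 to 24 and 261 to 270 for Nfkb2 and 222 to 231 for Nfkbia.
Nfkb2, chr19:46305445-46305744, plus strand: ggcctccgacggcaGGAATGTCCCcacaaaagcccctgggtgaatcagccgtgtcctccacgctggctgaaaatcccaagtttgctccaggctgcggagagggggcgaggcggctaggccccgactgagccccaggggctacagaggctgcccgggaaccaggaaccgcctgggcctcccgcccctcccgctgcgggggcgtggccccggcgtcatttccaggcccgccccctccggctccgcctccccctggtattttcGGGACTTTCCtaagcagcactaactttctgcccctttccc
Nfkbia, chr12:55492598-55492897, minus strand: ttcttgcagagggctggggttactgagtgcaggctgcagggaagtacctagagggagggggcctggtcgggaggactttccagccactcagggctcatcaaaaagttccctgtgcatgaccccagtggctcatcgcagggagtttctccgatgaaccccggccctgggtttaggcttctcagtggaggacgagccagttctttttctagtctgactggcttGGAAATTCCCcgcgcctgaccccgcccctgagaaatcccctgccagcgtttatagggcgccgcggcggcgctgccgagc

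Of 20 transcription factors of dendritic cells, 5 were higher and 5 lower. Id2, needed for dendritic cell development, stood at 788 CPM against 318 CPM, and Batf3, needed for cDC1, at 445 CPM against 191 CPM. The cDC1 set had 911 CPM of Id2 and 386 CPM of Batf3. Etv3, a repressor of the ETS family, stood at 364 CPM against 25.9 CPM, and Stat5a at 56.3 CPM against 20.9 CPM. Irf8, which is high in cDC1 and plasmacytoid cells, was at 220 CPM against 456 CPM in other LSM cells and 1052 CPM in the cDC1 set. Tcf4 and Bcl11a, factors of plasmacytoid cells, were at 37.1 and 32.0 CPM against 155 and 164 CPM. With TMM scaling this list had 8 higher and 4 lower.

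Survival genes gave 7 higher and 2 lower of 15, and 2 of the higher ones, Serpinb9 and Bcl2l14, passed the level filter through the members alone. The Bcl2a1 genes, which encode a short-lived inhibitor of cell death induced by NF-kB, were the most abundant: Bcl2a1b at 2227 CPM, Bcl2a1d at 1451 CPM and Bcl2a1a at 716 CPM in members, against 199, 164 and 48.5 CPM. These copies are nearly identical, so how reads were divided among them is uncertain. Serpinb9, an inhibitor of granzyme B, stood at 217 CPM against 6.04 CPM, and Cflar at 174 CPM against 37.1 CPM. Bcl2 itself had 0 UMIs in members against 27 CPM, at least 7.05-fold lower, and Bid was at 3.84 CPM against 25.5 CPM.

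In MHC class I, 8 of 11 genes were higher and none lower (median log2 1.23), and 2 of the higher ones, H2-M2 and Nlrc5, passed the level filter through the members alone. H2-D1 stood at 4923 CPM against 2010 CPM, B2m at 4019 CPM against 1587 CPM and H2-K1 at 3144 CPM against 1008 CPM. The immunoproteasome subunit Psmb9 and the loading factor Tapbp stood at 931 and 277 CPM against 438 and 134 CPM, and H2-M2, a nonclassical molecule, at 119 CPM against 1.10 CPM. MHC class II gave 2 higher and 4 lower of 12. H2-Eb1 stood at 8173 CPM against 4079 CPM, H2-Aa at 6221 CPM against 3590 CPM and H2-Ab1 at 4445 CPM against 4386 CPM. The loading genes differed among themselves: H2-DMa was lower at 325 CPM against 667 CPM and H2-DMb1 at 240 CPM against 698 CPM, while H2-DMb2 was higher at 190 CPM against 72.6 CPM. March1, the ubiquitin ligase that removes MHC class II from the surface of immature cells, was at 5.11 CPM against 54.5 CPM. March1 passed the level filter through the other cells alone. With TMM scaling 3 of the 12 were lower, and H2-DMa, at a ratio of 0.562, was no longer called. Against the cDC2 set none of the 12 was higher and 4 were lower.

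Antigen uptake genes gave 1 higher and 8 lower of the 11 that passed the level filter, with a median log2 ratio of -2.15 against -0.25 over all genes. Clec12a stood at 25.6 CPM against 122 CPM, Mgl2 at 1.28 CPM against 51.1 CPM and the Fc receptor Fcgr2b at 15.3 CPM against 45.3 CPM, beside Cd209a and Clec10a above. Lower genes under 10 CPM in members, Mgl2 and Clec10a among them, passed the filter through the other cells alone, so their direction was set by it. The 1 higher gene, Ly75, the endocytic receptor DEC-205, stood at 40.9 CPM against 2.60 CPM and passed the filter through the members alone. Of 17 uptake genes with a row, 6 did not pass the level filter. Of 14 Toll-like receptor genes only 3 passed it. Tlr13 stood at 15.3 CPM against 5.72 CPM and passed through the members alone, and the adaptor Myd88 lower at 17.9 CPM against 50.2 CPM.

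Among interferon-stimulated genes, 4 of 10 were higher and none lower, with Oasl1 passing the level filter through the members alone, led by Gbp2 (208 against 41.7 CPM) and Mx1 (144 against 25.5 CPM), while Irf7 was at 99.7 CPM against 155 CPM. Cell cycle genes gave none higher and 4 lower of 8. Lower genes under 10 CPM in members, Ube2c (a UMI in 1 member) among them, passed the level filter through the other cells alone. Stmn1 was at 111 CPM against 329 CPM, and the 3 cells described at the edge of the rule held 50, 19 and 8 of the members' 87 UMIs of it. Immediate early genes, which also rise when tissue is dissociated, gave 3 lower of 12 and none higher: Fos at 482 CPM against 1379 CPM, Ier2 at 303 CPM against 774 CPM and Egr1 at 55.0 CPM against 233 CPM. Dissociation effects on these genes were not tested.

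**Figure D3:**
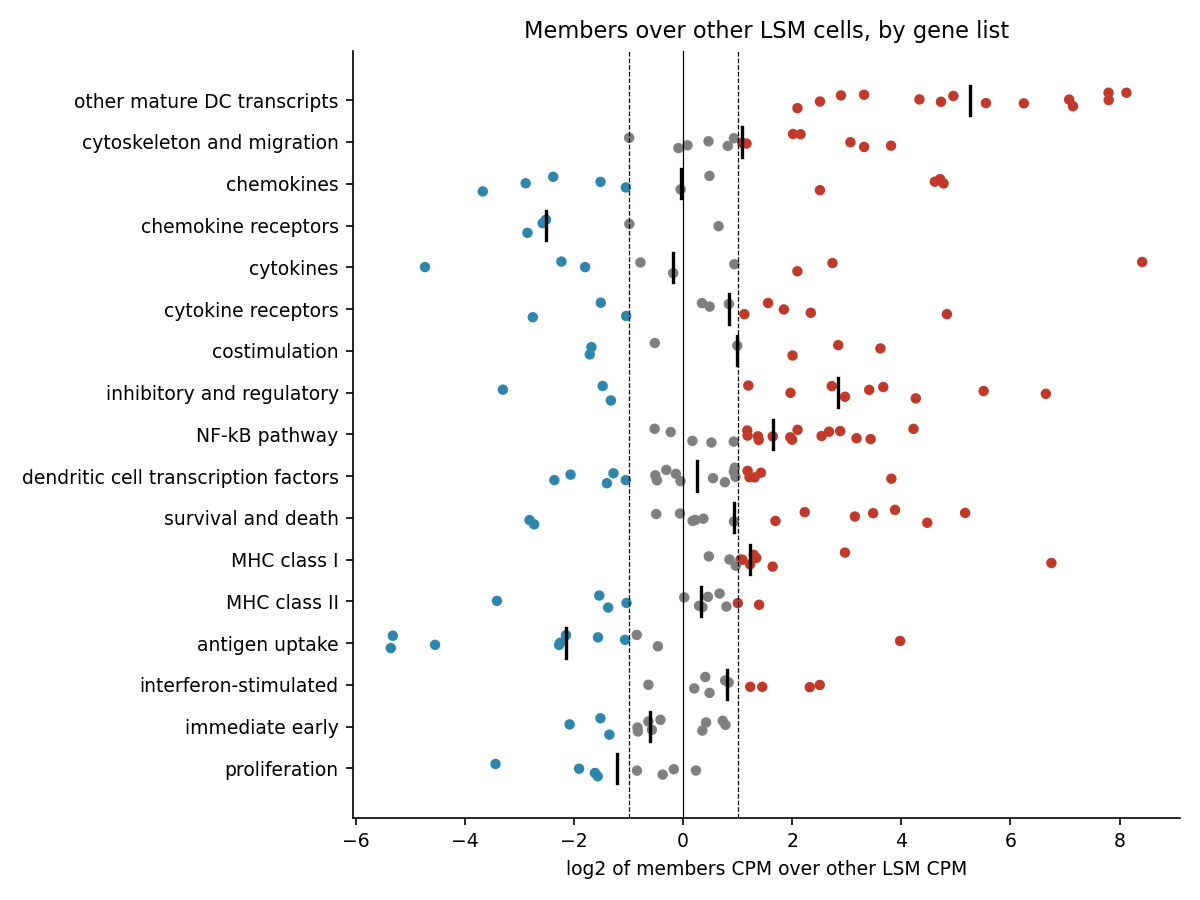
Log2 ratio of members over other LSM cells (x axis) for the genes of 17 lists that passed the level filter; each point is 1 gene, red at a ratio of at least 2, blue at most 0.5 and grey between, black bars are list medians and dashed lines mark the calls. All 14 other mature dendritic cell transcripts lie on the right and 8 of 11 antigen uptake genes on the left, with medians of 5.25 and -2.15. A gene under 10 CPM in 1 group had its direction set by the filter, and the lists were chosen with earlier results of these data known.

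Transcripts of the lists that chose the cDC1 and cDC2 sets were mostly missing from members. A UMI of a cDC1 marker only was found in 14 members (8.33%, interval 4.63 to 13.6%), of a cDC2 marker only in 3 (1.79%), of both in 4 (2.38%) and of neither in 147 (87.5%). In the monocyte set 1.49% of cells had a cDC1 marker only and 1.49% a cDC2 marker only, and in the progenitor set 1.38% and 4.15%. Both sets were chosen with fewer than 3 UMIs of the cDC1 list and of the cDC2 list, a limit that members did not have. After thinning to 1500 UMIs, 3 members had a cDC1 marker only and 3 a cDC2 marker only, against 2 and 1 of 195 cells of the monocyte set. With all UMIs the cDC1-only share of members lay above both sets, with the progenitor set's interval at 0.286 to 3.99% and the monocyte set's at 0.307 to 4.28%, and after thinning the intervals overlapped. Clec9a had 15 UMIs in 14 members. After thinning, which removed most UMIs, it was seen in 0 of the 168 members and in 30.1% of the cDC1 set, which it helped to choose. The shares depend on the markers counted. Tmem176a, often high in cDC2 and not counted here, had a UMI in 163 members, and Sirpa, a further cDC2 marker not counted, in 26. Tmem176a stood at 1524 CPM in members against 410 CPM in the cDC2 set and 16.2 CPM in the cDC1 set.

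The members varied among themselves. The splits that follow were chosen after the values were seen and are descriptions. When members were ranked by rule-gene UMIs as a share of their UMIs, the 84 upper members had 16771 CPM of Ccl5, against 7169 CPM in the 84 lower members, and Samsn1 (1756 against 811 CPM), the tetraspanin Cd63 (1022 against 446 CPM) and Cd200 (276 against 97.2 CPM) followed the same order. H2-Ab1 ran the opposite way at 2839 CPM in the upper members against 5615 CPM in the lower members, as did H2-DMa (127 against 468 CPM), Ccl17 (367 against 835 CPM), Cxcl9 (103 against 466 CPM) and Ly6a (12.1 against 146 CPM). Median depth was 3848.5 UMIs in the upper and 4817 in the lower members, and the part of depth in these differences was not tested. H2-Ab1 had no UMI in 24 of the upper members and 9 of the lower members.

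**Figure D4:**
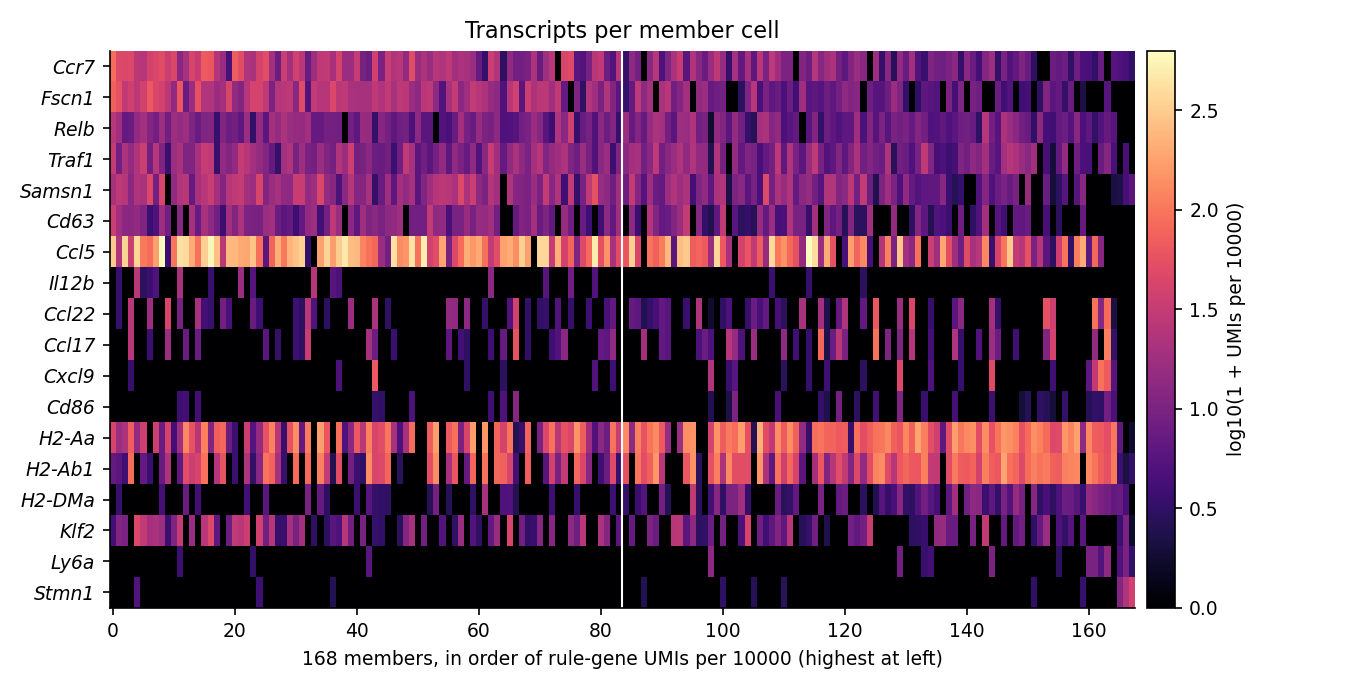
Level of 18 transcripts (rows) in each of the 168 members (columns), ordered by rule-gene UMIs as a share of the cell's UMIs with the highest at left; colour is log10 of 1 plus UMIs per 10000, and the white line parts the 84 upper from the 84 lower members. Ccl5 is brightest on the left, H2-Ab1 on the right, and Stmn1 in the last columns.

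Il12b (chr11:44400063-44414033) was found in 19 members (11.3%), with 1 UMI in 10 of them and 12 at most. After thinning it was in 6.55% of members (3.31 to 11.4%) and in 0 of 2798 other LSM cells, which at this depth allows a share of cells with a UMI of up to 0.107% (3 counts). The 19 members with a UMI had 466 CPM of H2-Ab1, against 4855 CPM in the 149 members without, a ratio of 0.0959 (0.0663 to 0.134). H2-Aa stood at 2041 CPM in members with Il12b against 6651 CPM in those without, H2-Eb1 at 1959 CPM against 8813 CPM and Cd74 at 6054 CPM against 17259 CPM. Ccl5 went the other way, at 23927 CPM against 9907 CPM, and Ccl17 was at 41.1 CPM against 699 CPM. An H2-Ab1 UMI was found in 10 of the 19 and in 125 of the 149, so the groups overlap cell by cell. Median depth was 3996 UMIs in members with Il12b against 4333 in those without. Of these 19 cells, 16 were among the upper members, and within the upper members alone the H2-Ab1 ratio was 0.124 and the Ccl5 ratio 1.35, where all members gave 2.42 for Ccl5.

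**Figure D5:**
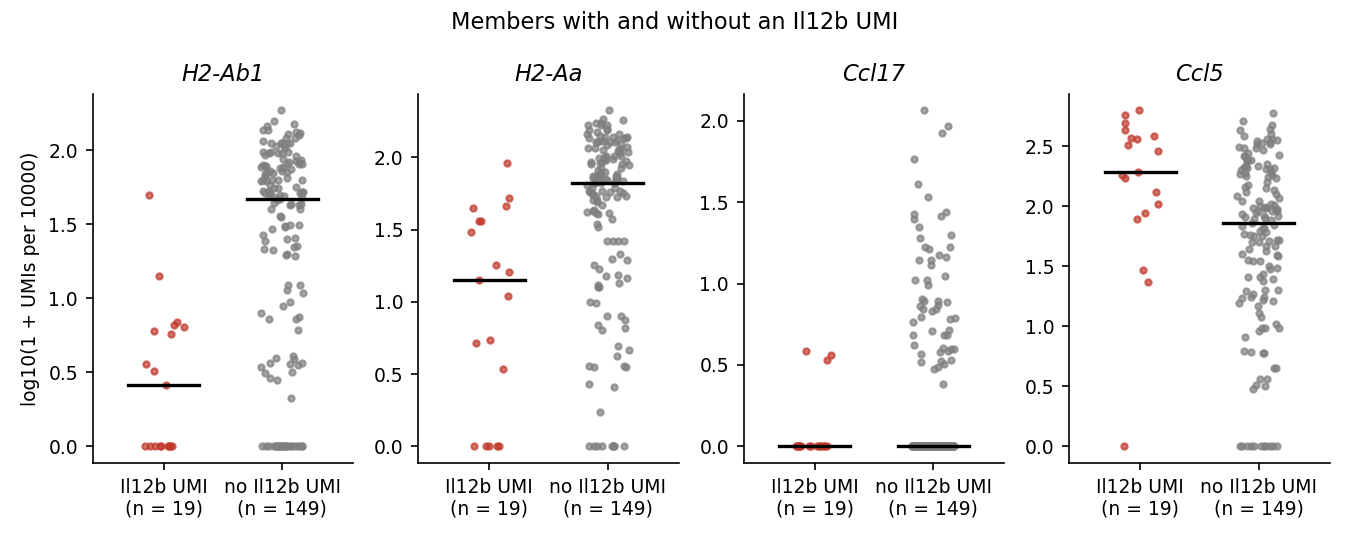
H2-Ab1, H2-Aa, Ccl17 and Ccl5 per cell (y axis, log10 of 1 plus UMIs per 10000) in the 19 members with an Il12b UMI (red, left) and the 149 without (grey, right); each point is 1 cell and bars are medians. Cells with Il12b sit low for H2-Ab1 (466 against 4855 CPM) and high for Ccl5 (23927 against 9907 CPM), and both groups overlap in each panel.

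Ccl17 and Ccl22 overlapped in part: 40 members had both, 20 Ccl17 only, 32 Ccl22 only and 76 neither. A Ccl22 UMI was present in 66.7% of members with Ccl17 and 29.6% of members without, and in 69.2% and 19.4% after thinning. The 60 members with Ccl17 also had more Cd86 (145 against 25.8 CPM), Pdcd1lg2 (138 against 49.5 CPM) and Cxcl9 (617 against 105 CPM) than the 108 without. They had less Klf2, a transcription factor of lymphocyte trafficking (264 against 857 CPM), and less Il12b (18.9 against 99.0 CPM). Median depth was 4852 UMIs with Ccl17 and 4000.5 without. The 24 members with a UMI of Cxcl9, an interferon-induced ligand of Cxcr3, had 1434 CPM of Ccl17 against 457 CPM in the 144 without. The 16 members with Ly6a had 1756 CPM of Cxcl9 and 774 CPM of Ccr7, against 74.5 and 1623 CPM in the 152 without. These 16 include the 3 Stmn1-rich cells at the edge of the rule, which had no Cxcl9 UMI. Further cells of the 16 also had none, and most of their Cxcl9 UMIs lay in a few cells, with up to 43 in 1 cell.

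In the CD122+CD49a+ library, which the rule was not written for, 3 of 1248 kept cells passed (0.240%, interval 0.0496 to 0.701%). The gates and the depths of the libraries (median 5109 UMIs in kept LSM cells against 1464) set these shares, so the 2 shares are not compared. The 3 cells had 1603, 2339 and 774 UMIs, each with 2 Ccr7 UMIs, and 1 of them had 4 Fscn1 UMIs. They held 4, 38 and 12 Ccl5 UMIs, 1 Relb UMI each and no UMI of Cd3e or Il2rb.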

How the data were processed

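Droplet single-cell RNA libraries (10x Genomics) of 2 sorted liver gates were analysed, 1 library each. The values are raw UMI counts per gene and cell as deposited by the authors. Per the file headers, the matrices come from software version 3.0.1. The submitters' processing notes name STAR, Seurat 2.3.0 and the build GRCm38. The authors' barcode selection is not given in sources used here. The LSM matrix held 3133 barcodes and 16226070 UMIs. Barcodes with under 500 detected genes (59) or over 10% mitochondrial UMIs (9) were left out, and the CD122+CD49a+ library lost 398 and 9 of 1655.

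Members and gene lists were chosen with earlier results of these data known. UMIs were summed over cells and scaled to CPM. Ratios carry exact conditional Poisson intervals and shares exact Clopper-Pearson intervals at 95%, both for counting error only. Where a group had 0 UMIs, 3 counts over the group stood in as the floor. Thinning drew 1500 UMIs per cell and left out shallower cells. Positions come from GENCODE M21, in which 27645 of 27998 gene identifiers were found. Named genes are up to 5 per list and direction past 2-fold, of highest CPM in the group where they are higher, plus the 20 largest and 10 smallest ratios among protein-coding genes of at least 100 CPM. Other genes were named after their values were seen. Doublets were scored with Scrublet (scanpy 1.11.5) and removed only as an alternative. TMM came from edgeR 4.0.16, with no count model fitted. The fitting steps ran in numpy 2.4.6, scipy 1.17.1 and pandas 2.3.3 and were tested on simulated data.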

Additional observations from a re-analysis of the deposited data

How the results depend on the processing

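No paired analysis was possible because each gate has 1 library. Of 2008 gene ratios under 8 alternatives (251 genes), 1 turned round: Ube2c, with a ratio of 0.0922, had 1.27 when the rule asked for 2 UMIs, an alternative that adds cells. Ratios of 94 genes moved beyond their counting interval under thinning, 59 under TMM, 58 with a mean over cells, 27 and 21 with 2 and 5 rule UMIs, 26 with Scrublet and 14 with stricter cell filters, in each case out of 251. With a mean of at least 50 CPM, 292 genes were higher and 327 lower, and with no filter 5588 and 2566. Against the cDC1 set, 1804 genes were lower after thinning, where all UMIs gave 1202. The share of members with a marker that chose the cDC1 or cDC2 set was 12.5%, but 3.57% after thinning and 2.38% when 2 UMIs were asked for. With a rule of at least 5 UMIs, 1 cell of the CD122+CD49a+ library passed in place of 3. The H2-Ab1 ratio between members with and without Il12b was 0.0349 when members with Il12b needed 2 UMIs of it, where 1 UMI gave 0.0959. Scrublet removed 77 cells, 11 of them members (6.55%) and 66 other LSM cells (2.28%), at an assumed rate of 2.51%, while its automatic threshold marked 14 cells (0.457%). Without the 77 cells, 768 genes were higher. Depth limits rare transcripts: 0 UMIs in members does not show that a gene was not expressed.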
